A study of Homo sapiens with 6 samples.

Results

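Genes for chromatin and DNA methylation regulators were followed in a MACE-Seq comparison of 2 SEM cell lines. Members were the 59 genes of a named list whose symbol matched the gene name in the count table, out of 35410 genes listed there, and they were sorted into 11 groups by complex or activity. The SEM line was established from a human proB leukemia and carries the KMT2A::AFF1 fusion. SEM::mock cells were transfected with the empty vector and SEM::EGR3 cells with a vector for the transcription factor EGR3. In both lines transgene expression is inducible by doxycycline, and both received 1 µg/mL of it for 48 h before RNA was extracted, so that the drug is common to all 6 libraries. Each line was represented by 3 biological replicates, and whether either line is a single clone is not given in the sources used here. MACE-Seq reads the 3′ ends of polyadenylated transcripts. The comparison therefore gives transcript levels and no direct measure of chromatin marks or DNA methylation.

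Chromatin regulators act by writing, removing or reading chemical groups on histones and DNA, or by moving nucleosomes. Polycomb complexes place repressive marks on histones H3 and H2A, whereas the KMT2 and SETD1 enzymes methylate H3K4 at promoters and enhancers. SWI/SNF complexes use ATP to open chromatin, and NuRD joins a remodeler with histone deacetylases. DNMT3A and DNMT3B set new DNA methylation, DNMT1 copies it after replication, and TET enzymes oxidize it. In leukemias with a KMT2A fusion the fusion protein brings such regulators to its target genes, and many members are studied there as drug targets or as mutated genes.

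The SEM::mock libraries held 5286115 to 6181388 counts and the SEM::EGR3 libraries 7293092 to 15106018. Reads of EGR3 itself numbered 8, 10 and 6 in the SEM::mock and 9768, 4952 and 5557 in the SEM::EGR3 libraries, so EGR3 was high in the line labelled with it. Reads of the vector and of the endogenous gene were not told apart. Markers of the labelled cell type were not detected equally in both lines. Of 10 B-lineage markers, 8 were at or below the detection limit of 3 counts in every SEM::mock library, including PAX5, EBF1 and CD79A. The summed level of the list was 1.94 to 4.69 CPM (TMM-scaled counts, relative to a library of 1000000) in SEM::mock and 488 to 516 CPM in SEM::EGR3, where BLNK and DNTT remained at the limit. Of 10 KMT2A fusion target markers, HOXA3, HOXA7, HOXA9 and PROM1 were at the limit in SEM::mock, and the list summed to 129 to 149 CPM there against 940 to 986 CPM in SEM::EGR3. In SEM::EGR3, 9 of the 10 rose and 1 fell, LMO2, from 110 to 31.8 CPM. LMO2 alone thus made up most of the SEM::mock sum. The 12 erythroid markers summed to 4861 to 5204 CPM in SEM::mock and 6170 to 6406 CPM in SEM::EGR3. Of these, HBZ, HBA1 and HBA2 rose in SEM::EGR3, 8 fell and HBE1 was at the limit in both lines. The 7 myeloid markers summed to 291 to 301 and 221 to 224 CPM, and the 6 T cell markers to 60.2 to 66.6 and 130 to 142 CPM, in SEM::mock and SEM::EGR3 respectively. In SEM::EGR3, 2 myeloid markers rose and 2 fell, and 3 T cell markers rose and 2 fell. CEBPA rose from 12.4 to 126 CPM while LYZ fell from 154 to 42.6 CPM. TRAC rose from 1.20 to 74.4 CPM while CD3D fell from 57.9 to 6.24 CPM. HBG2, a fetal globin gene, was at 2333 ± 38.1 CPM in SEM::mock and 945 ± 30.6 CPM in SEM::EGR3 (SD, n = 3). The libraries labelled SEM::mock thus went against their proB label. The SEM::EGR3 libraries carried B-lineage transcripts, but their erythroid transcripts went against that label too. HBZ was at 2108 and HBA1 at 1491 CPM there, against 861 and 513 CPM in SEM::mock. The identity of the SEM::mock libraries is in doubt. Whether they come from the same parental cells as SEM::EGR3 could not be checked here. Each fold change below is a difference between the libraries so labelled. These marker differences separate the same libraries as every result on the members, and since all 3 SEM::mock libraries shared them, no comparison could be made without such libraries. An effect of EGR3 and any other difference between the lines cannot be told apart here, nor can fewer cells of a type be told apart from less RNA per cell.

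With EGR3, 34 of the 59 members rose, 11 fell and 14 remained without a call. Genes were called at an adjusted p-value under 0.05 (edgeR, quasi-likelihood, Benjamini-Hochberg over 15465 tested genes), and all 59 members passed the filter on low counts. Of all tested genes, 68.5% were called, 36.5% as higher and 32.0% as lower. The members stood at 76.3%, 57.6% and 18.6%. The libraries of both lines did not overlap for 44 members (74.6%) and for 70.1% of all tested genes. With 68.4% of genes called within the members' range of mean level, a call by itself says little about a member, and the size of the change is given below for each. Counts of calls by group below rest on few genes each. They are to be read beside the shares of all tested genes, 36.5% higher and 32.0% lower.

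Large changes were few. A log2 fold change of at least 1 in either direction, together with the call, was seen for 13.6% of members and 25.2% of all tested genes. The members past it were DNMT3A, ARID1B, KDM4B, SMARCA2, SIRT1 and HDAC5, which rose, and DNMT3B and TET1, which fell. Among all genes, 16.7% rose and 8.50% fell by as much. The median log2 fold change of the members was 0.23, against 0.03 for all tested genes, and the median size of change regardless of sign was 0.35, against 0.47. Log2 fold changes of members ran from -1.47 for DNMT3B to 2.02 for DNMT3A. Without SEM::mock replicate 1, 3 members rose at least 2-fold in place of 6.

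**Figure D1:**
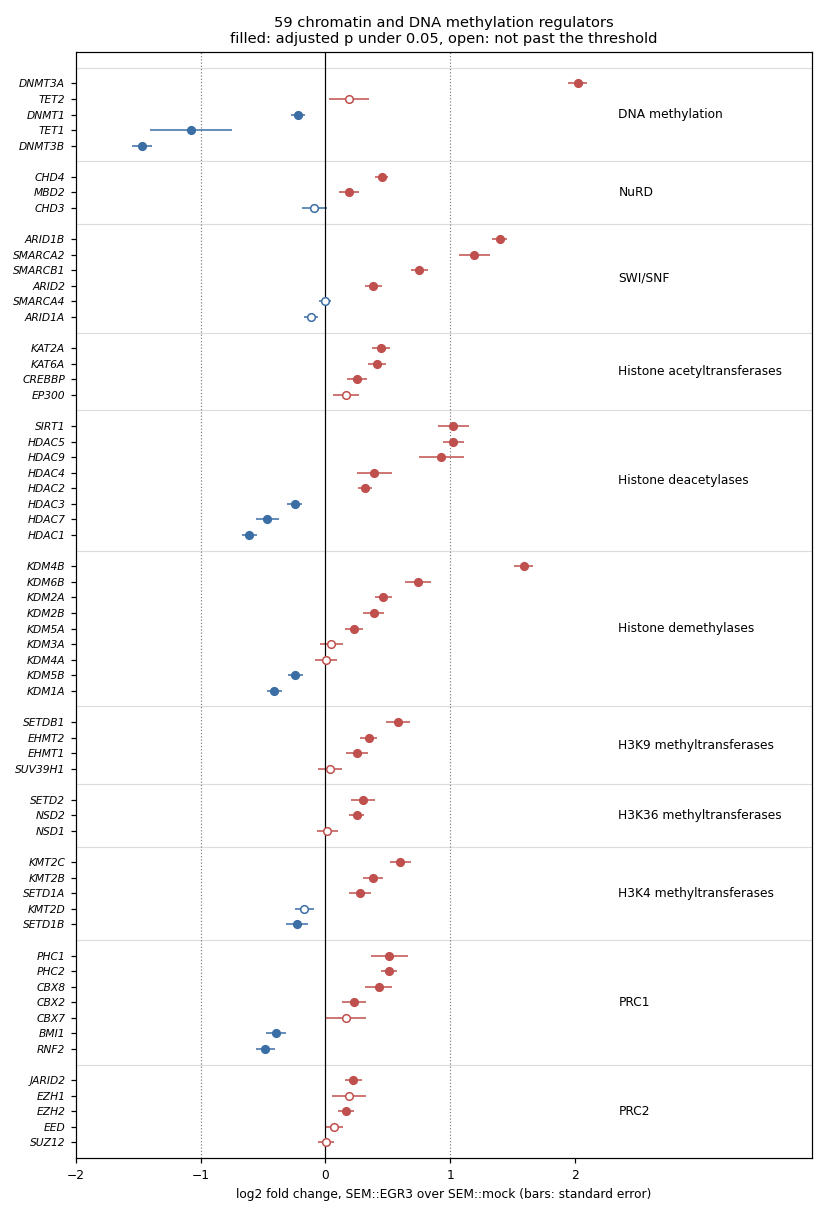
Log2 fold change (SEM::EGR3 over SEM::mock, horizontal axis) of the 59 members, sorted by complex, as fitted by edgeR. Points are estimates and lines are standard errors. Colors mark the direction of change, filled points are called and open points are not called. Most points lie within 1 log2 unit of zero, and DNMT3A at 2.02 and DNMT3B at -1.47 form the ends of the range.

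EGR proteins are zinc finger factors that bind GC-rich elements, so promoter letters of the members were searched on both strands for GCGTGGGCG and its variant GCGGGGGCG. The promoter table of RefSeq (GRCh38.p14, 250 bases before to 50 after each start, 300 bases in all) held 92 promoters for 53 of the 59 members. ARID2, CBX2, CBX8, HDAC5, KAT6A and SETD1B had no entry. Either element was found in 11 of the 92 member promoters (12%) and in 5.77% of all 35116 promoters in the table. GCGTGGGCG alone was found in the promoters of BMI1 and HDAC4, 2.17% of member promoters and 0.795% of all. Base composition differed as well, with a median GC content of 68.2% in member promoters and 58.7% in all, and the GC box GGGCGG was present in 63% and 45%. Among promoters of members that rose, 6 of 57 held an element (10.5%), among those that fell 1 of 13 (7.69%), and among those not called 4 of 22 (18.2%). In these small counts the element was not more frequent in promoters of called members. Promoters of the same gene were counted separately and the difference was not tested, so no conclusion is drawn from it. Among the 8 members that changed at least 2-fold, SIRT1 was the only member with a match in the windows searched, and HDAC5 had no window. The promoters of SIRT1, BMI1 and HDAC4 are shown because they hold these matches, in capitals, and that of DNMT3A at the annotated start of the gene because it was the member with the largest increase and holds none. The HDAC4 window belongs to an alternative start. All are written 5′ to 3′ on the strand of the gene. A match is a description of letters, and binding was not measured here.
SIRT1 promoter, chr10:67884406-67884705, plus strand: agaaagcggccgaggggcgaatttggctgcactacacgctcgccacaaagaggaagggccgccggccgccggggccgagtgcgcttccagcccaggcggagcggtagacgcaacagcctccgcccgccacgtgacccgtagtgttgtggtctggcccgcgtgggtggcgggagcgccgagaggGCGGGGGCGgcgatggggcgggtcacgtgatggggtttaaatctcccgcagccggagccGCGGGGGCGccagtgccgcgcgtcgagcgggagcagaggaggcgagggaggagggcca
BMI1 promoter, chr10:22321706-22322005, plus strand: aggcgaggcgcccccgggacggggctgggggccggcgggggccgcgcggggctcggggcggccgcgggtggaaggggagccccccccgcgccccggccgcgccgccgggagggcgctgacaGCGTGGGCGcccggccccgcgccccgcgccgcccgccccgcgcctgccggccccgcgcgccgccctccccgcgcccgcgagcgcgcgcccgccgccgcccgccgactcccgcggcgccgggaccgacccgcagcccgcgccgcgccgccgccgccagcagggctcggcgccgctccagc
HDAC4 promoter, chr2:239273578-239273877, minus strand: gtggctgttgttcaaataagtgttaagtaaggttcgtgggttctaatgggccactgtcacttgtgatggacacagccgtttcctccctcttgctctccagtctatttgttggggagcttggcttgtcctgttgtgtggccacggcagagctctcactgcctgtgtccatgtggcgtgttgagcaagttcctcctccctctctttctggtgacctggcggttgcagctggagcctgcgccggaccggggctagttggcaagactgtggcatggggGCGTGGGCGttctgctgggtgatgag
DNMT3A promoter, chr2:25342541-25342840, minus strand: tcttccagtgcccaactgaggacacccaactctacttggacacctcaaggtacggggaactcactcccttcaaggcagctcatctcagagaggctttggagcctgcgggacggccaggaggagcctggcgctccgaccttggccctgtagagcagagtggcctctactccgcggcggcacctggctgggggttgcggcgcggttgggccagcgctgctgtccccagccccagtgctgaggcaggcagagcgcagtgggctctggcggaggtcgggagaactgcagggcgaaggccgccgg
The first SIRT1 match begins 67 bases before the start and overlaps letters of 2 GC boxes, the other begins 8 bases before the start. The BMI1 match begins 129 bases before a start that lies inside the gene, which begins at 22321211. The other BMI1 promoter of the table, chr10:22320849-22321148, held no element. The HDAC4 match lies after the start of its window, in 1 of the 5 HDAC4 promoters of the table. DNMT3A has 6 promoters in the table and none held an element. The single DNMT3B window of the table, without an element, lies at a start inside the gene, so the letters at its upstream start were not searched.

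The genes for DNA methylation enzymes changed most, and in opposite directions. DNMT3A rose 4.06-fold while DNMT3B fell 2.77-fold, TET1 fell 2.11-fold from a low level, DNMT1 fell slightly and TET2 was not called. DNMT3A (ENSG00000119772, chromosome 2, 25227855 to 25342590 on the minus strand, GRCh38) encodes a de novo methyltransferase. It was counted 224, 185 and 162 times in SEM::mock and 2062, 1079 and 1255 times in SEM::EGR3. On the CPM scale its level was 39.4, 30.9 and 31.6 in SEM::mock and 132, 145 and 138 in SEM::EGR3. The lowest SEM::EGR3 library was thus more than 3-fold above the highest SEM::mock library. The log2 fold change was 2.02 (SE 0.08, adjusted p = 3.47e-17 in edgeR's quasi-likelihood test).

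DNMT3B (ENSG00000088305, chromosome 20, 32762385 to 32809356 on the plus strand) encodes the other de novo methyltransferase, which is active mainly in early development. Its level was 66.0, 64.4 and 59.6 CPM in SEM::mock and 23.0, 23.1 and 22.6 CPM in SEM::EGR3. The SEM::EGR3 libraries lay within 1 CPM of each other and far below all SEM::mock libraries, with a log2 fold change of -1.47 (SE 0.08, adjusted p = 1.57e-14 in edgeR's quasi-likelihood test). In depth terms DNMT3B rested on 305 to 386 counts per SEM::mock library and 172 to 358 per SEM::EGR3 library. The within-library log2 ratio of DNMT3A to DNMT3B was -0.90 ± 0.16 in SEM::mock and 2.57 ± 0.06 in SEM::EGR3 (SD, n = 3), so the ratio of their tags moved 11.1-fold.

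TET1 (ENSG00000138336, chromosome 10, 68560656 to 68694482 on the plus strand), a dioxygenase that oxidizes 5-methylcytosine, was scarce in both lines. Only 15, 15 and 13 reads were found in SEM::mock and 25, 5 and 9 in SEM::EGR3, equal to 2.64, 2.50 and 2.54 CPM against 1.61, 0.671 and 0.991 CPM. The lines did not overlap in CPM, and the log2 fold change was -1.08 (SE 0.33, adjusted p = 0.00517 in edgeR's quasi-likelihood test). The call held without any single library, at an adjusted p of up to 0.021, but the fold change ran from -1.57 to -0.89, and it was under 2-fold without SEM::EGR3 replicate 2 or replicate 3. Its paralog TET2, a frequent target of mutation in myeloid disease, was at 11.4 ± 2.55 CPM in SEM::mock and 12.6 ± 2.21 CPM in SEM::EGR3 (SD, n = 3). The groups overlapped, and the 95% confidence interval of the TET2 log2 fold change of 0.19 was -0.14 to 0.52. DNMT1, the maintenance methyltransferase, was at 170.2, 154 and 166 CPM in SEM::mock and 137, 144 and 141 CPM in SEM::EGR3. It fell by 0.22 on the log2 scale, without overlap of the lines.

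**Figure D2:**
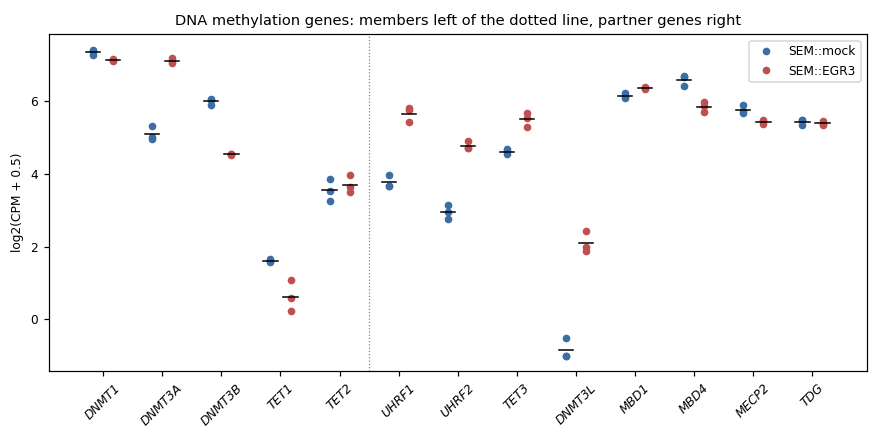
Level as log2(CPM + 0.5) (vertical axis) of DNA methylation genes in each library of SEM::mock and SEM::EGR3. Members are left of the dotted line and the further genes of the group right of it. Each point is 1 library. DNMT3A lies between 30.9 and 39.4 CPM in SEM::mock and between 132 and 145 CPM in SEM::EGR3, whereas DNMT3B goes from 59.6 to 66.0 CPM down to 22.6 to 23.1 CPM.

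Further genes of DNA methylation moved as well. Of 8 tested, 5 rose and 2 fell. UHRF1, which guides DNMT1 to hemimethylated DNA, was at 13.2 ± 1.71 CPM in SEM::mock and 50.4 ± 7.20 CPM in SEM::EGR3, a log2 fold change of 1.94 (SE 0.12). Its homolog UHRF2 went from 7.30 ± 1.04 to 27.0 ± 2.05 CPM, a log2 fold change of 1.88 (SE 0.13). DNMT3L, the catalytically inactive cofactor of the de novo enzymes, was counted 0, 0 and 1 times in SEM::mock and 76, 26 and 29 times in SEM::EGR3, at least 7.16-fold higher against the limit of 3 counts per library. The genes for maintenance therefore went apart, with DNMT1 lower and both UHRF genes higher in SEM::EGR3. TET3, outside the size limit used for naming further genes, was at 24.0 CPM in SEM::mock and 45.2 CPM in SEM::EGR3.

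In the SWI/SNF group, 4 of 6 members rose, none fell, and the median log2 fold change was 0.57. ARID1B (ENSG00000049618, chromosome 6, 156776020 to 157210779 on the plus strand) encodes a DNA-binding subunit that is exclusive with ARID1A in a complex. It was counted 427, 474 and 404 times in SEM::mock and 3323, 1429 and 1881 times in SEM::EGR3. Its level was 75.1, 79.1 and 78.9 CPM in SEM::mock and 213, 192 and 207 CPM in SEM::EGR3. Every SEM::EGR3 library was more than 2-fold above every SEM::mock library, and the log2 fold change was 1.40 (SE 0.06, adjusted p = 4.05e-16 in edgeR's quasi-likelihood test). ARID1A was at 177, 191 and 172 CPM in SEM::mock and 168, 161 and 168 CPM in SEM::EGR3. ARID1A was not called (log2 fold change -0.12, 95% confidence interval -0.24 to -0.0024, adjusted p = 0.0653 in edgeR's quasi-likelihood test).

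The same contrast was seen for the ATPases of the complex. SMARCA2 (ENSG00000080503, chromosome 9, 1980290 to 2193624 on the plus strand) was counted 63, 115 and 88 times in SEM::mock and 578, 253 and 337 times in SEM::EGR3. Its level was 11.1, 19.2 and 17.2 CPM in SEM::mock and 37.1, 33.9 and 37.1 CPM in SEM::EGR3, with SEM::mock replicate 1 the lowest of all. The log2 fold change was 1.19 (SE 0.12, adjusted p = 4.75e-09 in edgeR's quasi-likelihood test) and was 0.97 without SEM::mock replicate 1. SMARCA4, the alternative ATPase, was at 264, 255 and 259.6 CPM in SEM::mock and 253, 263 and 261 CPM in SEM::EGR3. Its log2 fold change of -0.00 had a 95% confidence interval of -0.11 to 0.10, and its sign changed with the scaling.

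SMARCB1 (chromosome 22, 23786931 to 23838008 on the plus strand), a core subunit and tumor suppressor, was at 72.2, 62.7 and 66.8 CPM in SEM::mock and 111, 119.9 and 110.4 CPM in SEM::EGR3. It rose by 0.75 on the log2 scale (SE 0.07) without overlap of the lines. The 3′ end of SMARCB1 overlaps DERL3 on the opposite strand, which had a mean of 8.35 CPM in SEM::mock and 16.7 CPM in SEM::EGR3, and its part in the SMARCB1 result was not tested. ARID2, the subunit of the PBAF form, rose from 46.8 ± 2.06 to 61.2 ± 2.65 CPM (SD, n = 3), a log2 fold change of 0.39. Of the 13 further SWI/SNF genes tested, 5 rose and 4 fell.

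**Figure D3:**
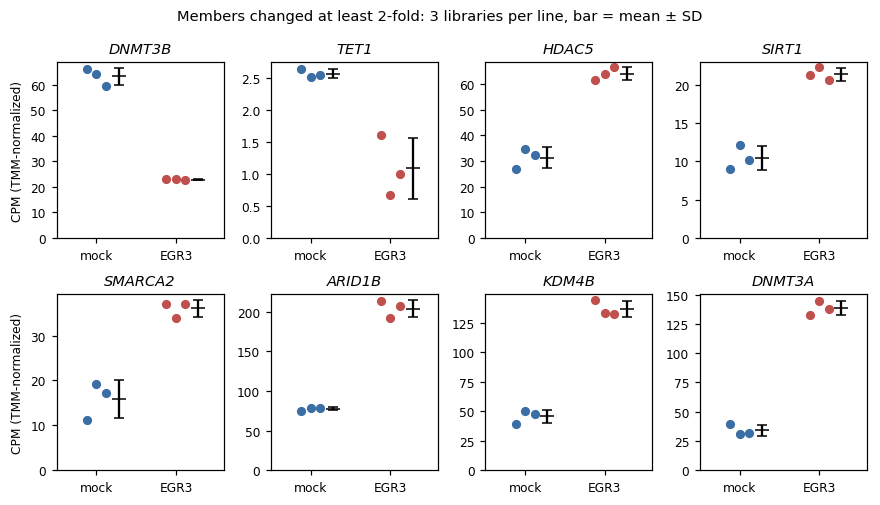
Level in CPM (linear scale) of the 8 members with a called change of at least 2-fold, by library, for SEM::mock and SEM::EGR3. Black bars give mean and SD. Each point is 1 library. DNMT3A, ARID1B, KDM4B, SMARCA2, SIRT1 and HDAC5 are higher and DNMT3B and TET1 lower in SEM::EGR3, and for none of the 8 do the lines overlap.

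Among 9 histone demethylases, 5 rose, 2 fell and 2 were not called. KDM4B (ENSG00000127663, chromosome 19, 4969113 to 5153595 on the plus strand) removes methyl groups from H3K9 and was the member with the largest increase after DNMT3A. It was counted 221, 301 and 243 times in SEM::mock and 2243, 996 and 1201 times in SEM::EGR3. Its level was 38.9, 50.2 and 47.5 CPM in SEM::mock and 144, 134 and 132 CPM in SEM::EGR3. The SEM::EGR3 libraries were all above 2-fold of the highest SEM::mock library, and the log2 fold change was 1.59 (SE 0.08, adjusted p = 2.27e-15 in edgeR's quasi-likelihood test). Its paralog KDM4A was at 39.4, 33.5 and 36.3 CPM in SEM::mock and 36.4, 32.9 and 39.8 CPM in SEM::EGR3. The KDM4A libraries overlapped, with a log2 fold change of 0.00 and a 95% confidence interval of -0.18 to 0.19.

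KDM6B, which removes the Polycomb mark H3K27 trimethylation, was at 18.1, 19.5 and 17.4 CPM in SEM::mock and 33.0, 28.2 and 30.0 CPM in SEM::EGR3. The lines were clearly apart and the log2 fold change was 0.74 (SE 0.10). KDM1A, the LSD1 demethylase of H3K4, was at 128, 134 and 144 CPM in SEM::mock and 104, 102 and 99.7 CPM in SEM::EGR3. It fell by 0.41 on the log2 scale, and all SEM::EGR3 libraries were below all SEM::mock libraries. Of the H3K4 demethylases of the KDM5 family, KDM5A rose by 0.23 on the log2 scale and KDM5B fell by 0.24. KDM2A and KDM2B, CpG island binding proteins with demethylase activity, rose by 0.46 and 0.39 on the log2 scale. KDM3A was not called, at 30.4 ± 2.47 CPM in SEM::mock and 31.5 ± 1.34 CPM in SEM::EGR3 (SD, n = 3). Of the 9 further genes tested in this group, 6 rose and 1 fell. Of these JMJD1C, a relative of KDM3A, went from 13.7 ± 2.43 to 54.2 ± 1.82 CPM, a log2 fold change of 1.98 (SE 0.10).

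All 8 histone deacetylases were called, 5 as higher and 3 as lower. Of all tested genes, 68.5% were called, 36.5% as higher and 32.0% as lower. HDAC1 and HDAC2, which sit in the same corepressor complexes, moved in opposite directions. HDAC1 (chromosome 1, 32292086 to 32333635 on the plus strand) was at 186, 209 and 215 CPM in SEM::mock and 137, 133 and 129 CPM in SEM::EGR3. HDAC2 was at 210.5, 215 and 206 CPM in SEM::mock and 257, 256 and 275 CPM in SEM::EGR3. No library of one line reached into the range of the other for either gene. The log2 fold changes were -0.61 for HDAC1 (SE 0.06) and 0.32 for HDAC2 (SE 0.05), and their ratio moved 1.90-fold. HDAC3, the catalytic subunit of the NCoR complex, fell by 0.25 on the log2 scale.

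HDAC5 (ENSG00000108840, chromosome 17, 44076746 to 44123702 on the minus strand), a class IIa deacetylase, was counted 152, 208 and 166 times in SEM::mock and 955, 476 and 604 times in SEM::EGR3. Its level was 26.8, 34.7 and 32.4 CPM in SEM::mock and 61.3, 63.9 and 66.5 CPM in SEM::EGR3. The lines did not overlap, and the log2 fold change was 1.02 (SE 0.08, adjusted p = 9.02e-11 in edgeR's quasi-likelihood test), or 0.90 without SEM::mock replicate 1. HDAC9, of the same class, was at 6.34, 9.34 and 4.88 CPM in SEM::mock and 14.3, 14.6 and 10.7 CPM in SEM::EGR3. It rose by 0.93 on the log2 scale with a wide standard error of 0.18, the SEM::mock libraries themselves differing nearly 2-fold. HDAC4 rose by 0.39 on the log2 scale. HDAC7, the class IIa member linked to B cell identity, was at 48.0, 46.2 and 35.9 CPM in SEM::mock and 29.9, 32.5 and 33.0 CPM in SEM::EGR3. It fell by 0.47 on the log2 scale without overlap, and its 3′ end overlaps SLC48A1 on the opposite strand, which had a mean of 55.2 CPM in SEM::mock and 107 CPM in SEM::EGR3. The part of that overlap in the HDAC7 result was not tested.

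SIRT1 (ENSG00000096717, chromosome 10, 67884669 to 67918390 on the plus strand), an NAD-dependent deacetylase whose promoter is printed above, was counted 51, 73 and 52 times in SEM::mock and 331, 166 and 187 times in SEM::EGR3. Its level was 8.98, 12.2 and 10.2 CPM in SEM::mock and 21.3, 22.3 and 20.6 CPM in SEM::EGR3. The lines were well apart, with a log2 fold change of 1.02 (SE 0.12, adjusted p = 8.85e-08 in edgeR's quasi-likelihood test), or 0.91 without SEM::mock replicate 1. Of the 12 further deacetylase genes tested, 4 rose and 4 fell.

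The core of PRC2 changed little. EZH2, the H3K27 methyltransferase, was at 78.3, 76.9 and 75.0 CPM in SEM::mock and 87.1, 84.0 and 87.0 CPM in SEM::EGR3. It rose by 0.17 on the log2 scale (SE 0.06, adjusted p = 0.0199 in edgeR's quasi-likelihood test), without overlap of the lines. The EZH2 call was lost in 7 of 14 alternatives, DESeq2 among them, at an adjusted p of up to 0.102. Its paralog EZH1 had a similar log2 fold change of 0.19 with overlapping libraries and was not called. JARID2, an accessory subunit that guides PRC2, rose from 72.4 ± 5.11 to 84.5 ± 4.41 CPM (SD, n = 3). The core subunits SUZ12 and EED were not called, and the 95% confidence intervals of their log2 fold changes were -0.13 to 0.14 and -0.09 to 0.22. Of the 6 further PRC2 genes tested, 3 rose and 2 fell.

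In PRC1, 4 of 7 members rose and 2 fell, RNF2 and BMI1. RNF2 (chromosome 1, 185045364 to 185102608 on the plus strand), the main ubiquitin ligase for H2A, was at 52.6, 56.6 and 59.8 CPM in SEM::mock and 41.5, 37.2 and 41.4 CPM in SEM::EGR3. BMI1, its partner in canonical PRC1 and a self-renewal gene, was at 44.2, 43.7 and 48.2 CPM in SEM::mock and 35.8, 30.7 and 35.8 CPM in SEM::EGR3. For both genes every SEM::EGR3 library lay below every SEM::mock library, and they fell by 0.48 and 0.40 on the log2 scale. PHC1 and PHC2, the polyhomeotic subunits, each rose by 0.51 on the log2 scale. PHC2 was at 82.2, 80.1 and 76.2 CPM in SEM::mock and 112, 120.5 and 107 CPM in SEM::EGR3. PHC1 shares its 3′ end with M6PR on the opposite strand, which had a mean of 34.1 CPM in SEM::mock and 32.4 CPM in SEM::EGR3, and whose part was not tested. Of the chromobox readers, CBX8 rose by 0.43 and CBX2 by 0.23 on the log2 scale, the latter with overlapping libraries and a call lost in 6 of 14 alternatives. CBX7 was not called, at 10.3 ± 2.50 CPM in SEM::mock and 11.4 ± 1.51 CPM in SEM::EGR3 (SD, n = 3). Of the 11 further PRC1 genes tested, 6 rose and 2 fell, and RING1, the paralog of RNF2, was not called at a log2 fold change of -0.03.

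Of 5 H3K4 methyltransferases, 3 rose and 1 fell. KMT2C (chromosome 7, 152134922 to 152436005 on the minus strand), an enhancer methyltransferase and tumor suppressor, was at 47.2, 53.5 and 42.2 CPM in SEM::mock and 77.9, 65.7 and 72.4 CPM in SEM::EGR3. It rose by 0.60 on the log2 scale (SE 0.08) without overlap of the lines. Its paralog KMT2D was at 56.0, 54.7 and 47.7 CPM in SEM::mock and 49.7, 47.0 and 43.8 CPM in SEM::EGR3, and these ranges overlapped. The log2 fold change of KMT2D was -0.17 (95% confidence interval -0.33 to -0.01) and the adjusted p = 0.0577 in edgeR's quasi-likelihood test. KMT2B, the close relative of the gene broken in the SEM fusion, rose by 0.38 on the log2 scale. Its 3′ end overlaps IGFLR1 on the opposite strand, which had a mean of 2.81 CPM in SEM::mock and 9.13 CPM in SEM::EGR3. The SET1 enzymes for bulk H3K4 methylation moved apart, SETD1A rising by 0.28 and SETD1B falling, with a log2 fold change of -0.23 that was not called in 7 of 14 alternatives. Of the 9 further genes tested in this group, 3 rose and 4 fell.

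Changes in the H3K36 and H3K9 methyltransferases were all upward where called. SETDB1 (chromosome 1, 150926263 to 150964744 on the plus strand), which silences retroelements through H3K9 trimethylation, was at 24.5, 22.5 and 21.1 CPM in SEM::mock and 34.0, 37.2 and 31.0 CPM in SEM::EGR3. It rose by 0.58 on the log2 scale (SE 0.10) without overlap. SETDB1 and CERS2 on the opposite strand share their 3′ ends, and CERS2 had a mean of 158 CPM in SEM::mock and 114 CPM in SEM::EGR3. The H3K9 dimethylating pair EHMT1 and EHMT2 rose by 0.25 and 0.35 on the log2 scale, and SUV39H1 was not called, with a 95% confidence interval of -0.17 to 0.24. Among the H3K36 enzymes, SETD2 rose by 0.30 and NSD2, which is mutated in childhood lymphoblastic leukemia, by 0.25 on the log2 scale. NSD1 was not called, with a 95% confidence interval of -0.16 to 0.19. Of the 8 further H3K9 genes tested, 2 rose and 2 fell, and none of the 2 further H3K36 genes was called.

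Of 4 acetyltransferases, 3 rose and none fell. KAT2A, the catalytic subunit of SAGA, was at 57.9, 54.5 and 60.5 CPM in SEM::mock and 78.9, 84.4 and 72.5 CPM in SEM::EGR3. The lines did not overlap and the log2 fold change was 0.45 (SE 0.07). KAT6A, a MYST family enzyme found in leukemic fusions, rose by 0.41 on the log2 scale. CREBBP, a coactivator mutated in lymphoid malignancies, rose by 0.25, and its paralog EP300 was not called, at 24.8 ± 1.44 and 27.5 ± 3.15 CPM (SD, n = 3). Of the 8 further genes tested, 4 rose and none fell. KAT6B, the paralog of KAT6A, went from 4.73 ± 1.05 to 21.1 ± 3.03 CPM, a log2 fold change of 2.17 (SE 0.17).

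In the NuRD group CHD4, the main remodeling ATPase, was at 225, 223 and 216 CPM in SEM::mock and 300.4, 313 and 295 CPM in SEM::EGR3. It rose by 0.45 on the log2 scale without overlap. The alternative ATPase CHD3 was not called, with a log2 fold change of -0.09 (95% confidence interval -0.30 to 0.12). MBD2, the subunit that binds methylated DNA, rose by 0.19 with overlapping libraries (adjusted p = 0.0392 in edgeR's quasi-likelihood test), and its call was lost in 6 of 14 alternatives. Of the 6 further NuRD genes tested, 3 rose and 2 fell.

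Because many members come as paralogs that can replace each other in a complex, the balance within 20 such pairs was computed in each library as a log2 ratio of CPM with a pseudocount of 0.5. A ratio of 3′ tags is read here as a change between the lines and not as a ratio of molecules. For 6 pairs the ratio moved at least 2-fold. It moved 11.1-fold toward DNMT3A and away from DNMT3B, 3.00-fold toward KDM4B over KDM4A and 2.84-fold toward ARID1B over ARID1A. It moved 2.57-fold toward HDAC9 over HDAC7, 2.30-fold toward SMARCA2 over SMARCA4 and 2.19-fold toward TET2 over TET1. In 3 of these, KDM4, ARID1 and SMARCA, one paralog rose while the other was not called. ARID1A nonetheless lay lower in all SEM::EGR3 libraries without overlap, and was called as lower in 2 of 14 alternatives.

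In 5 pairs both paralogs were called in opposite directions, DNMT3A with DNMT3B, HDAC1 with HDAC2, HDAC7 with HDAC9, SETD1A with SETD1B and KDM5A with KDM5B. Of all tested genes, 36.5% were called higher and 32.0% lower, so opposite calls would also be common in pairs of unrelated genes. Both calls were kept in every alternative for 3 of the 5, the DNMT3 and both HDAC pairs, while SETD1B lost its call in 7 of 14 alternatives, KDM5A in 2 and SETD1A in 1. The ratio moved by 0.48 on the log2 scale for SETD1A over SETD1B and by 0.47 for KDM5A over KDM5B. The ratio of EZH1 to EZH2 moved by 0.00. For 13 pairs the libraries of the lines did not overlap in the ratio, and each of these had p = 0.1 in a two-sided exact permutation test, the smallest p that this test allows with 3 against 3 libraries. Adjusted over the 20 pairs it was 0.154, so no ratio could pass the threshold by this test. Taken singly, 70.1% of all tested genes also had libraries of the lines that did not overlap. Pairs of other genes were not counted, so these counts of pairs are not read as particular to paralogs.

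**Figure D4:**
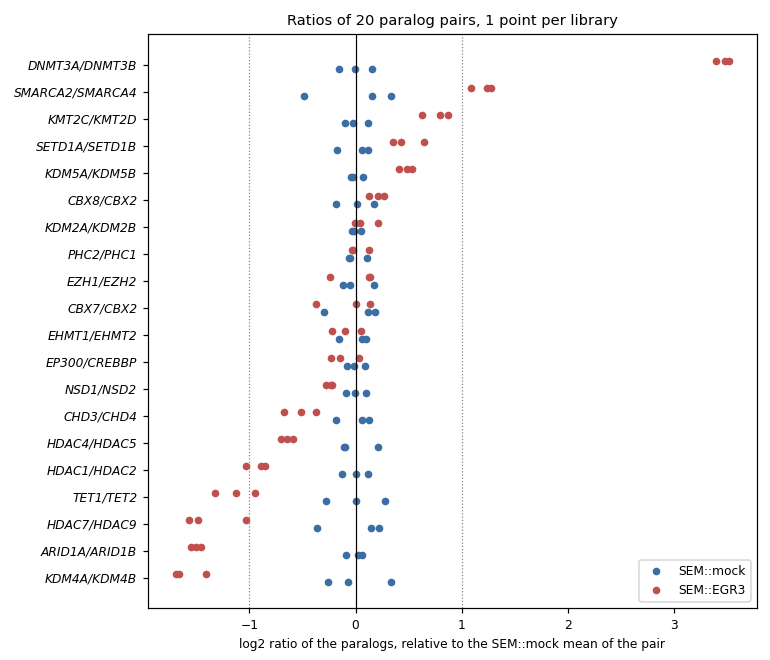
Within-library log2 ratio of CPM for the paralog pairs, relative to the SEM::mock mean of each pair, by library, for SEM::mock and SEM::EGR3. Each point is 1 library. The mean of the DNMT3A to DNMT3B points of SEM::EGR3 lies 3.47 above the SEM::mock mean, whereas the points of EZH1 to EZH2 overlap.

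Other subunits and enzymes of the same groups were counted as a backdrop to the members. Of 94 such genes, 92 could be tested, 41 rose and 23 fell in SEM::EGR3, and 69.6% were called, with a median log2 fold change of 0.11. A change of at least 2-fold was seen upward for 8, among them RCOR1, the scaffold that binds KDM1A to HDAC1 and HDAC2, at 1.31 on the log2 scale. It was seen downward for 3, SMARCD3, PHF19 and PCGF2. PHF19, a PRC2 accessory subunit that reads H3K36 methylation, was at 439.6 ± 7.94 CPM in SEM::mock and 181 ± 3.08 CPM in SEM::EGR3 (SD, n = 3), and PCGF2, the paralog of BMI1, at 71.2 ± 2.89 and 34.5 ± 1.69 CPM. RCOR1, SMARCD3, PHF19, PCGF2 and TET3 were named after their values were seen.

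Another gene lies within the last 1000 bases of 19 members in the annotation, on the opposite strand for 16 of them, and for none of the 8 members that changed at least 2-fold. Whether strand was used in counting is not given in the sources used here, so reads of such pairs may be shared, and the part of this in the members' values was not tested. This includes KDM2B, whose neighbor RNF34 had a mean of 60.0 CPM in SEM::mock and 36.2 CPM in SEM::EGR3.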

How the data were processed

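RNA of SEM::mock and SEM::EGR3 was measured by MACE-Seq in 3 biological replicates each. Raw integer counts of each gene, as deposited by the authors, were the only values used. According to the labels' processing notes bcl2fastq, Bowtie2, HTSeq and GRCh38 were used. Versions, strand setting and use of molecular identifiers are not given in the sources used here. Columns headed ERG3 were taken as SEM::EGR3, the only other line in the labels. Deposited fold changes, p-values, means and scaled values were not used. Totals of 5286115 to 15106018 counts limit the precision of low genes such as TET1, and counting limits cover counting error only.

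Tests were run with edgeR 4.0.16 in R 4.3.3 (filterByExpr, TMM, glmQLFit, glmQLFTest) over all 6 libraries without a covariate. P-values were adjusted by Benjamini-Hochberg over 15465 genes, and CPM (TMM-scaled, on all listed counts) use the library scaling of this fit. SE was computed as the absolute log2 fold change divided by the square root of the F statistic of the quasi-likelihood test. Confidence intervals were built from that SE. Levels after ± are SD. The procedure was tested on simulated data. Positions come from GENCODE release 29 and promoters from RefSeq. Paralog ratios were compared by exact permutation.

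All members are accounted for. Values in every library are given for called members that changed 2-fold or more. They are also given for some group extremes and some paralogs that moved apart. Other members have a mean, a log2 fold change or a confidence interval. Further genes of the complexes are named from an absolute log2 fold change of 1.5. Members, gene lists and pairs were chosen with earlier results of these data known. Alternatives were DESeq2 1.42.0, other scalings (none, upper quartile, RLE), omission of the filter, a minimum of 10 counts per library, thinning to the smallest total, a replicate block, pseudocounts of 0.1 and 2, and each library left out in turn.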

Additional observations from a re-analysis of the deposited data

How the results depend on the processing

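Of the 45 called members, 34 kept the call in every alternative that gave a value and none of the 45 changed sign. The other 11 (EZH2, JARID2, CBX2, SETD1A, SETD1B, SETD2, EHMT1, KDM5A, HDAC4, CREBBP and MBD2) lost it in at least 1, and KMT2D, EP300 and ARID1A, not called, were called in 3, 2 and 2 of the 14 alternatives. With each library left out, members higher at least 2-fold numbered 3 to 7 in place of 6, and members lower at least 2-fold 1 to 2 in place of 2. The 3 came without SEM::mock replicate 1, where HDAC5, SIRT1 and SMARCA2 were below 2-fold, and the 1 without SEM::EGR3 replicate 2 or 3, where TET1 was. With at least 10 counts in every library 1 member was lower at least 2-fold, since TET1 was then not tested. DESeq2 called 29 members higher and 10 lower. A pseudocount of 2 took the TET1 to TET2 ratio to -0.70 on the log2 scale, under 2-fold.

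The replicate numbers did not pair the libraries: deviations of same-numbered libraries correlated at -0.12, -0.08 and -0.04. With a replicate block 32 members were higher and 11 lower, with 6 and 2 of them at least 2-fold, 40 further genes were higher and 21 lower, and 6 paralog ratios moved at least 2-fold.

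Members that changed sign, 8 in all, were not called, and the cause was not tested. On the log2 scale, thinned libraries gave -0.038 for SUZ12, -0.0675 for KDM3A and -0.0037 for KDM4A. The replicate block gave -0.0016 for SUZ12 and -0.0086 for KDM4A, and DESeq2 gave -2e-04 for KDM4A. SMARCA4 was at 0.0722 without normalization factors, 0.0123 with upper-quartile scaling and 0.0478 with at least 10 counts in every library. With each library left out, values ran from -0.0647 to 0.0631 for SUZ12, -0.0344 to 0.3331 for CBX7, -0.0288 to 0.0604 for NSD1, -0.0842 to 0.1083 for SUV39H1, -0.0228 to 0.1043 for KDM3A, -0.0693 to 0.0595 for KDM4A, -0.0285 to 0.0175 for SMARCA4 and -0.1909 to 0.0124 for CHD3. Without normalization factors the median of all genes moved by 0.08.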
